A study of Drosophila melanogaster with 3 samples.

Results

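The Cpr genes of Drosophila melanogaster encode cuticular proteins, and their occupancy by the transcription factor Sox100B was examined here in embryos. They were taken as all protein-coding genes of Ensembl release 115 (assembly BDGP6, dm6 coordinates) whose symbol begins with Cpr followed by a digit. 70 of the 13945 protein-coding genes on the 6 chromosome arms met this rule. Sox100B is a group E Sox factor. Whole embryos of both sexes, aged 6 to 16 h, came from the Drosophila line Sox100B-GFP, in which GFP is fused to the C terminus of Sox100B, and binding was mapped by chromatin immunoprecipitation and sequencing. The 3 samples are biological replicates 1, 2 and 3 of 1 group, so no condition was compared with another. Their free-text labels mention an input control, whereas the assay and antibody labels name a Sox100B immunoprecipitation, and the samples were taken as the latter. No untagged or mock immunoprecipitate was analysed here, and what drives the fusion gene is not stated in the sources used here.

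Cuticular proteins of the CPR family carry the Rebers and Riddiford consensus, a chitin-binding domain. Epidermal cells secrete them with chitin to build the exoskeleton, first the larval cuticle in late embryogenesis and again at each moult. Many of the genes are short, have few introns, and lie in tandem arrays named after their cytological position, so that Cpr65Ea, Cpr65Eb and Cpr65Ec are neighbours.

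Only a small part of the family carried a Sox100B-GFP peak, and the peaks were mostly weak and lay upstream of the gene. The authors' list of regions that passed the irreproducible discovery rate (IDR, a measure of how alike regions rank in replicates) held 5683 regions. A gene was counted where the summit of such a region, its highest point, lay in the gene body or up to 1 kb upstream, a stretch called the window of the gene. This was so for 7 of the 70 Cpr genes, against 22.3% of all protein-coding genes. Most Cpr genes are short, with a median length of 1094 bp against 2166 bp for all genes, and short windows hold fewer summits. When each Cpr gene was given the share found among other genes of its length (20 length classes), 10.01 of the 70 genes, or 14.3%, were expected. With matching on both length and distance to neighbouring genes, 8.53 were expected, closer to the 7 found. When each summit was given to the gene with the nearest transcription start site (TSS) instead, 11 Cpr genes were marked against 10.6 expected, so the count was then not below the expected one. The 7 genes were Cpr65Av, Cpr65Az, Cpr65Ea, Cpr67Fa1, Cpr67Fb, Cpr72Eb and Cpr73D. All 7 lie on arm 3L, which holds 35 of the 70 Cpr genes. They carried 10 IDR summits, of which 8 had a signal below 306.2, the median of the IDR list. Some of their regions overlap, and merging these leaves 8 stretches, so the 10 summits are not all separate peaks. In whole embryos, binding in few cells and weak binding in many cannot be told apart.

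The strongest peak in the family lay upstream of Cpr67Fb, a cuticular protein gene of 521 bp. Its summit stood 607 bp upstream of the TSS, with a signal of 573.3 and rank 1162 of the IDR list, where signal is the peak caller's deposited value on an unstated scale. The overlapping region ranked 1229 in replicate 1, 1034 in replicate 2 and 1628 in replicate 3, each among 30000 regions. The replicates therefore placed it high alike. A second, overlapping region had its summit 405 bp upstream, with a signal of 227.7 and pooled rank 4123. In replicates 1 and 3 it overlapped the same region as the first, and in replicate 2 it overlapped a separate region of rank 8041, which is outside the 5683 strongest.

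Cpr65Az and Cpr65Av, members of the Cpr65A array, had peaks with signals below the median of the IDR list. At Cpr65Az a pair of overlapping regions had summits 829 and 628 bp upstream of the TSS, with signals of 274.9 and 215.3. Both overlapped 1 region in each replicate, of rank 3864, 3619 and 3792 in replicates 1, 2 and 3. At Cpr65Av the summit lay 423 bp upstream with a signal of 259.1, and the overlapping regions ranked 3332, 3678 and 5172. The ranks at Cpr65Az were close to each other, whereas replicate 3 was the lowest at Cpr65Av.

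Cpr67Fa1, the first gene of the array at 67F, and Cpr65Ea had peaks of about the same height. The summit at Cpr67Fa1 lay 479 bp upstream with a signal of 263.6, and its region ranked 3309, 3488 and 5143 in replicates 1, 2 and 3. Cpr65Ea had 2 separate regions, with summits 235 and 992 bp upstream and signals of 235.8 and 220.7. The nearer one ranked 3093, 4335 and 7065 in replicates 1, 2 and 3, and the farther one 6796, 5621 and 3997. Each therefore fell outside the 5683 strongest regions of 1 replicate, a different one in each case.

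Cpr72Eb had the weakest of these peaks and Cpr73D the only one inside a gene. The summit at Cpr72Eb lay 462 bp upstream with a signal of 180.8 and rank 5366, close to the lowest signal of the IDR list, 172.1. Its region ranked 5255, 6388 and 9240 in replicates 1, 2 and 3, so only replicate 1 placed it among its 5683 strongest. Cpr73D, a gene of 18590 bp and the longest of the family, had a summit 786 bp downstream of its TSS with a signal of 437.4. That region ranked 1785, 2730 and 1348 in replicates 1, 2 and 3. The summit lay in an intron of both Cpr73D and Ogdh, which overlaps it and encodes a subunit of the oxoglutarate dehydrogenase complex. The nearest TSS was that of Ogdh, 536 bp away, so this region cannot be assigned to Cpr73D alone.

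**Figure D1:**
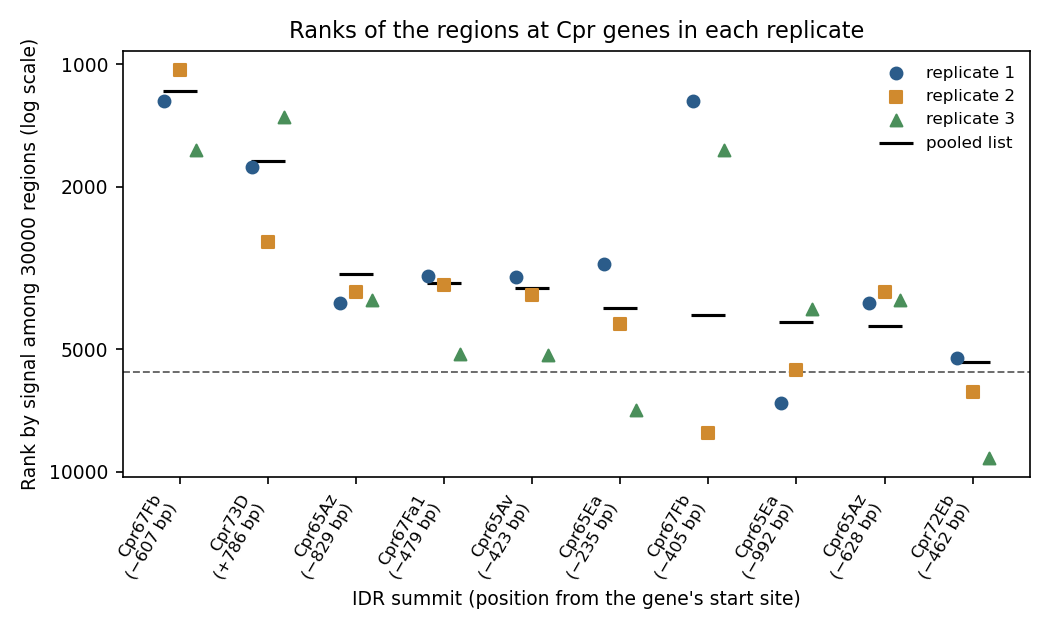
Rank by signal of the region overlapping each of the 10 IDR summits at Cpr genes, in replicates 1 to 3 (symbols) and in the pooled list (bars). Rank 1 is the strongest of 30000 regions, the axis is logarithmic and inverted, and the dashed line marks rank 5683. The regions at Cpr67Fb (607 bp upstream) and Cpr73D ranked between 1034 and 2730 in the replicates, and 6 of the 10 lay among the 5683 strongest of all 3 replicates.

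The sequences at the strongest summit of each of the 7 genes are given because they are the DNA that these peaks cover. Each window spans 100 bp on either side of the summit in dm6, is read from the RefSeq reference, and is written 5′ to 3′ on the strand of the Cpr gene. Capitals mark matches on either strand to a core bound by Sox proteins, ACAAAG or ACAATG, and to a core bound by GATA factors, the letters GATA preceded by A or T and followed by A or G.
Cpr65Av, chr3L:6140297-6140497, minus strand: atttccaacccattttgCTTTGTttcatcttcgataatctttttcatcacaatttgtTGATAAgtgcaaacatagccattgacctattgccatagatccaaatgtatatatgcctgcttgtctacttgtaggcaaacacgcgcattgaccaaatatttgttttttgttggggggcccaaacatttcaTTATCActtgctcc
Cpr65Az, chr3L:6159885-6160085, plus strand: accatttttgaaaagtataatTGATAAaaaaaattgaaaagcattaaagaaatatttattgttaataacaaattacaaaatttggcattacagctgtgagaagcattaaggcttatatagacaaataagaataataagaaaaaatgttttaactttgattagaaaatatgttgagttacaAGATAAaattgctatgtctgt
Cpr65Ea, chr3L:7086743-7086943, minus strand: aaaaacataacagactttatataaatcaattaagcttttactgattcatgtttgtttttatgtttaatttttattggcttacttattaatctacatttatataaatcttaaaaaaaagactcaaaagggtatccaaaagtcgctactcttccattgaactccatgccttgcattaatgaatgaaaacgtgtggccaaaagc
Cpr67Fa1, chr3L:10889411-10889611, plus strand: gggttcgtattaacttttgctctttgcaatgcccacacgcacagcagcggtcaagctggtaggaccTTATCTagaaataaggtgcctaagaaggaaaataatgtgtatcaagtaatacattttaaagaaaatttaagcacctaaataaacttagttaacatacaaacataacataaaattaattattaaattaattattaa
Cpr67Fb, chr3L:10893466-10893666, plus strand: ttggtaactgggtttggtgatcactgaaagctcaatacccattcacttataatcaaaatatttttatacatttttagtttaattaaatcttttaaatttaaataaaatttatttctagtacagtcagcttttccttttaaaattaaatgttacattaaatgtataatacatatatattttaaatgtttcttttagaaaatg
Cpr72Eb, chr3L:16364337-16364537, plus strand: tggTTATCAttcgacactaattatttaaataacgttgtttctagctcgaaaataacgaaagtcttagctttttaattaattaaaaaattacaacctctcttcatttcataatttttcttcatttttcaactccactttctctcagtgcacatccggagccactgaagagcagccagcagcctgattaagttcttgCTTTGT
Cpr73D, chr3L:16956803-16957003, minus strand: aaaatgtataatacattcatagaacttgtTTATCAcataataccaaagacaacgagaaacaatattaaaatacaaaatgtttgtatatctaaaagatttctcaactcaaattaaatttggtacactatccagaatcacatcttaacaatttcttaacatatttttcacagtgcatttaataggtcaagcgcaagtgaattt

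Matches to the Sox core were present at some of these summits and missing at others. Over all 10 IDR summits of the family, 4 had a Sox core within 100 bp, at Cpr65Av, Cpr72Eb and the weaker summits of Cpr65Az and Cpr67Fb. Over all 5683 IDR regions the share was 24.9%. The GATA core was found at 7 of the 10 summits, against 42.1% of all IDR regions. Of other patterns searched on both strands, GAGAG, a motif of the Trl protein, occurred at 2 summits (19.2% of all regions). The promoter element TATAAA occurred at 3 (42.2% of all). TATCGATA, which the factor DREF binds, occurred at 0 (1.79% of all). Each pattern was counted by itself, and matches to different patterns may overlap. The windows of Cpr67Fb and Cpr65Ea printed above held neither the Sox nor the GATA core. With 10 summits from 7 genes, some of them overlapping, these counts are a description of the sequences only. GC content within 100 bp of the summits ranged from 20.4 to 43.3% with a mean of 30.5%, against 33.2% over all IDR summits. None of the 31-base words in these 10 summit windows that lie in the windows of Cpr genes occurred more than once on the 6 arms.

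The peaks at Cpr genes lay upstream of the start site, away from it. Of the 10 IDR summits, 9 lay 235 to 992 bp upstream of the TSS, 1 lay 786 bp downstream, and 0 lay within 200 bp of it. 9 of the 10 were intergenic, and in the same 9 the nearest TSS of any protein-coding gene was that of the Cpr gene. Among all genes shorter than 2 kb, 54.0% of the 798 gene and summit combinations lay within 200 bp of the gene's own TSS and 40.9% lay farther upstream. Among all genes the shares were 21.8% and 36.8% of 5711. In the pooled list of 30000 regions, 3 of the 33 summits in windows of Cpr genes lay within 200 bp, or 9.09%. The share was 12.2% for all genes and 35.5% for genes shorter than 2 kb. The 33 include summits of Cpr genes longer than 2 kb, such as Cpr62Ba and Cpr73D, so the last share is not from genes of like length. The 10 IDR summits likewise include that of Cpr73D, so the 54.0% is not from genes of like length either. Some of the 10 regions also overlap.

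**Figure D2:**
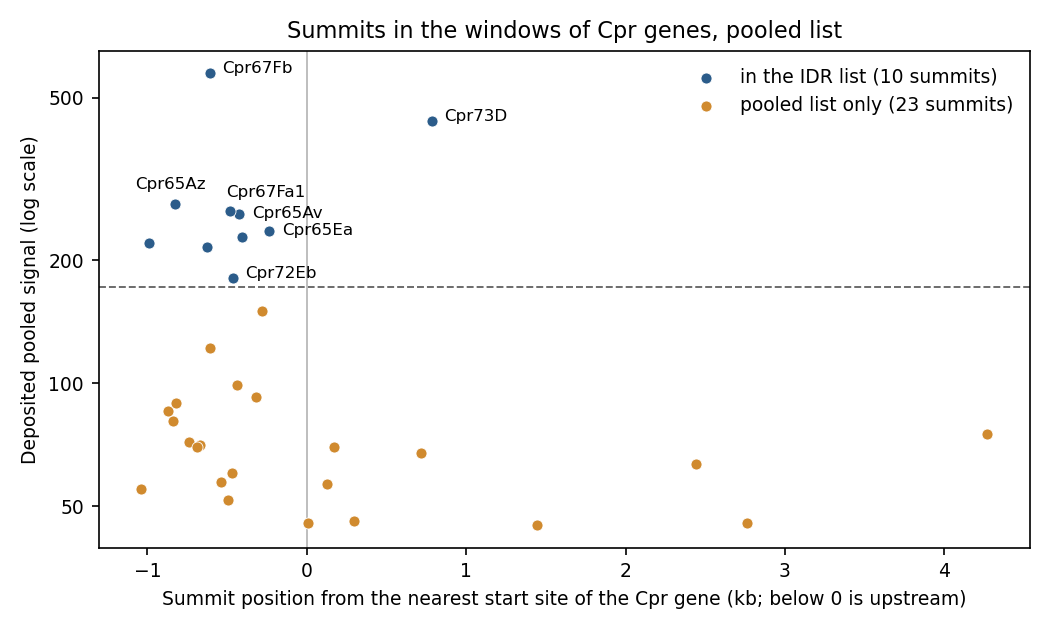
Position and deposited pooled signal (log scale) of the 33 pooled-list summits in the windows of Cpr genes, 10 of which are in the IDR list. The dashed line is the lowest signal of the IDR list, 172.1, and the vertical line the gene's start site. All but 1 of the IDR summits lie upstream and none lies within 200 bp of the start site.

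Each replicate gave a count below that expected from genes of like length. Matching on distance to neighbouring genes and the nearest-TSS rule, which narrowed or removed this gap for the IDR list, are given for that list only. Among the 5683 strongest regions of each replicate, summits marked 7 Cpr genes in replicate 1, 6 in replicate 2 and 5 in replicate 3, a mean of 6.00 ± 1.00 (SD, n = 3). The counts expected from genes of like length were 11.0, 11.4 and 11.7, a mean of 11.38 ± 0.36 (SD, n = 3). Over all genes the shares were 23.8%, 24.3% and 25.3%. The 7 genes of replicate 1 were the same 7 as in the IDR list, replicate 2 lacked Cpr72Eb, and replicate 3 lacked Cpr72Eb and Cpr65Ea. The replicate 3 region of rank 3997 overlaps the farther IDR region of Cpr65Ea, but its own summit lay just over 1 kb from the gene and so outside the window. No other Cpr gene was marked in any of the 3.

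Counting every region with a deposited q-value under 0.05 marked about as many Cpr genes. The pooled list had 9948 such regions, which marked 7 Cpr genes, the same 7 as the IDR list, against 13.6 expected from genes of like length and 29.0% of all genes. The replicates marked 7, 7 and 6, a mean of 6.67 ± 0.58 (SD, n = 3), against 13.9, 15.8 and 14.3 expected. Over all genes the shares were 29.4%, 32.7% and 30.2%. These lists held 8146 to 10358 regions, more than the IDR list, and the Cpr counts stayed at 6 or 7. Their expected counts too were matched on length only.

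When the full lists were counted, which hold background by design, the family came closer to genes of like length. The pooled list of 30000 regions had a summit in 19 of the 70 windows, or 27.1%, against 22.4 expected and 41.8% of all genes. The replicate lists of 30000 marked 23, 20 and 28 Cpr genes, a mean of 23.67 ± 4.04 (SD, n = 3), against 25.9, 26.7 and 27.2 expected. Over all genes the shares were 47.4%, 48.7% and 49.8%. Replicate 3 was thus above its expected count and the other two were below theirs. 11 Cpr genes had a summit in all 3 replicate lists, 11 in 2 of them, 16 in 1, and 32 in none. The same 32 had none in the pooled list either.

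**Figure D3:**
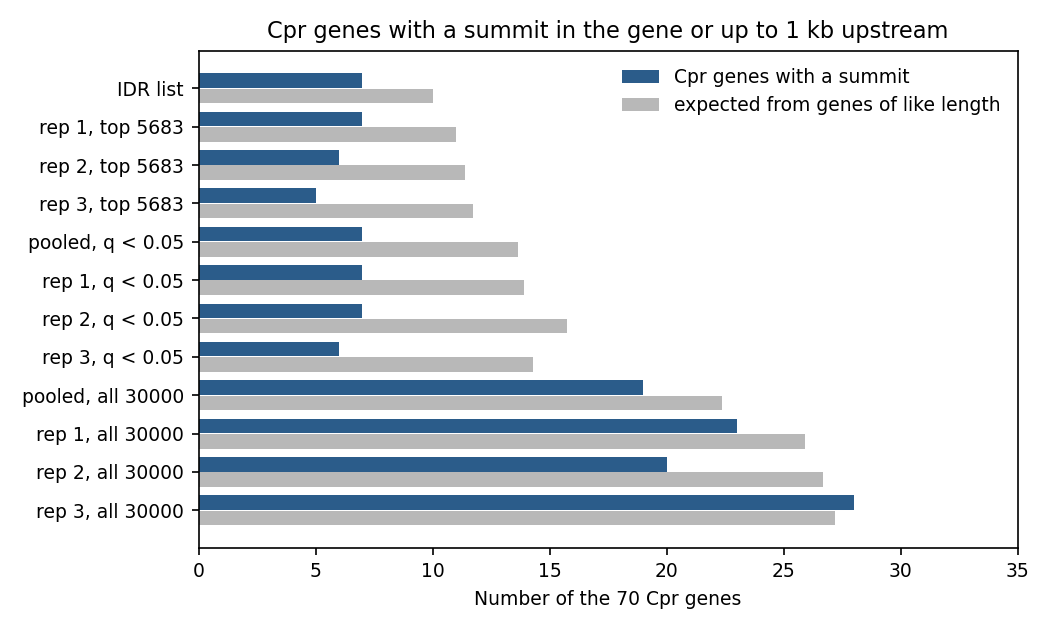
Number of the 70 Cpr genes whose window holds a summit (blue) and the number expected from other genes of like length (grey), in 12 selections of regions. Rep stands for replicate, top 5683 for its 5683 strongest regions. The observed count is below the expected one in each selection except all 30000 regions of replicate 3, where 28 genes were marked against 27.2 expected.

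Genes without an IDR summit had weaker regions in the pooled list, which follows from how the IDR list divides the regions: it holds the 5683 pooled regions of highest signal. 12 Cpr genes had a summit in the pooled list and not in the IDR list, with signals of at most 92.59. The genes marked in the IDR list had further pooled regions below its limit of 172.1, the highest of them at Cpr67Fa1 (149.9) and Cpr73D (122.1). The strongest among the 12 genes was Cpr31A, a gene of arm 2L, with a summit 318 bp upstream and pooled rank 11617. It ranked 11272 in replicate 1 and 13365 in replicate 2, and no region of replicate 3 overlapped it. Cpr62Ba followed with 6 regions along its 7655 bp and upstream, the strongest with a signal of 89.46, and replicate ranks of 11377, 24906 and 25997 for the overlapping regions. At Cpr49Ae the signal was 85.71, with the summit 872 bp upstream and replicate ranks of 19255, 13291 and 12130. Cpr67B (signal 69.83, summit 690 bp upstream) and Cpr65Aw (signal 69.76, summit 173 bp downstream of the TSS, in an intron) came next. None of these regions was among the 5683 strongest of any replicate.

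Clustered genes were described apart from single genes. Cpr genes with at most 10 kb between neighbours were taken as a cluster, which gave 13 clusters with 49 genes, 2 of them pairs, and left 21 single genes. Of the 49 clustered genes 6 had an IDR summit, or 12.2%, against 6.80 expected from genes of like length. Of the 21 single genes 1 had one, or 4.76%, against 3.22 expected, and this was Cpr73D, whose summit lay nearer to the TSS of Ogdh. Across the 5683 strongest regions of the replicates the clustered count was 6, 5 and 4 in replicates 1, 2 and 3, against 7.43, 7.69 and 7.94 expected, and the single count was 1 in each. In the pooled list 12 clustered genes had a summit against 15.4 expected, and 7 single genes against 7.0 expected. The clustered count did not stand on 1 side of the expected one under other settings. It was 6 against 5.12 expected with gaps of at most 5 kb, 6 against 5.36 in clusters of 3 or more, 7 against 6.43 for summits within 1 kb of a TSS, and 8 against 7.33 by nearest TSS. At the same settings, in the same order, the single count was 1 against 4.9 expected, 1 against 4.65, 1 against 3.01 and 3 against 3.27. It was thus below the expected one in each, though only slightly by nearest TSS. Neighbouring genes are not independent, and the difference between clustered and single genes was not tested.

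The peaks were concentrated in 4 of the 13 clusters. These 4 hold 16 Cpr genes, of which 6 had an IDR summit against 1.34 expected, and the other 9 clusters hold 33 genes, of which 0 had one against 5.46 expected. The clusters were set apart by the peaks themselves, so this contrast is a description. The cluster Cpr67Fa1 to Cpr67Fb (chr3L:10889990-10894693, dm6) had an IDR summit at 2 of its 3 genes, and the third, Cpr67Fa2, had only a pooled region with a signal of 46.13. In replicates 1, 2 and 3 the strongest 5683 regions marked 2, 2 and 2 of these genes. The cluster Cpr65Ea to Cpr65Ec (chr3L:7086003-7093841) had 1 of 3 genes marked, Cpr65Ea. A further IDR summit lay between Cpr65Eb and Cpr65Ec, 2194 bp from the TSS of Cpr65Eb, with a signal of 452.7, outside every window. The cluster Cpr72Ea to Cpr72Ec (chr3L:16362603-16367340) had 1 of 3 marked, Cpr72Eb. Replicate 1 alone marked it among its 5683 strongest regions, replicates 1 and 2 at a q-value under 0.05, and all 3 replicates in their full lists.

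The array Cpr65Au to Cpr65Az was the cluster with most regions. It spans chr3L:6131242-6161589, a stretch of 30348 bp, and holds 7 Cpr genes and 11 other protein-coding genes, 10 of which are the cuticle genes of the Lcp65A group and Acp65Aa. Of the 7 Cpr genes, Cpr65Av and Cpr65Az had an IDR summit, Cpr65Aw and Cpr65Ay only a pooled one, and Cpr65Au, Cpr65Ax1 and Cpr65Ax2 neither. The strongest region of the array had a signal of 666.5 and rank 934, with its summit 377 bp from the TSS of CG13297 and 876 bp from that of Cpr65Ay, downstream of that gene, so it was counted for no Cpr gene. None of the 10 interspersed Lcp65A and Acp65Aa genes had an IDR summit. In the windows of Cpr65Ax1 and Cpr65Ax2, 51.5% and 59.9% of the 31-base words occurred more than once on the 6 arms. Whether reads from them could be placed depends on alignment rules not given in the sources used here, so their lack of regions is uncertain.

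The other clusters had no IDR summit in any window. On arm 2R, Cpr47Ea to Cpr47Eg (7 genes in 26695 bp), Cpr49Aa to Cpr49Ad (4), Cpr49Ae to Cpr49Ah (4) and the pair Cpr50Ca and Cpr50Cb had none. The span of Cpr47Ea to Cpr47Eg contained 1 IDR summit, of signal 446.5, 667 bp from the TSS of TpnC47D, a gene for a troponin C of muscle, and 2492 bp from the nearest TSS of a Cpr gene, Cpr47Eg. On 3L, Cpr62Ba to Cpr62Bc (3), Cpr64Aa to Cpr64Ad (4), Cpr76Ba to Cpr76Bd (4) and Cpr78Ca to Cpr78Cc (3) had none, and neither did the pair Cpr97Ea and Cpr97Eb on 3R. An IDR summit lay 820 bp outside the span of Cpr76Ba to Cpr76Bd, downstream of Cpr76Ba and 1600 bp from its TSS. 5 of the 13 spans contained no summit of the pooled list at all. The stretches free of pooled summits around these 5 spans, which had to exceed the spans themselves, ranged from 25048 bp at Cpr97Ea and Cpr97Eb to 57843 bp at Cpr49Aa to Cpr49Ad.

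**Figure D4:**
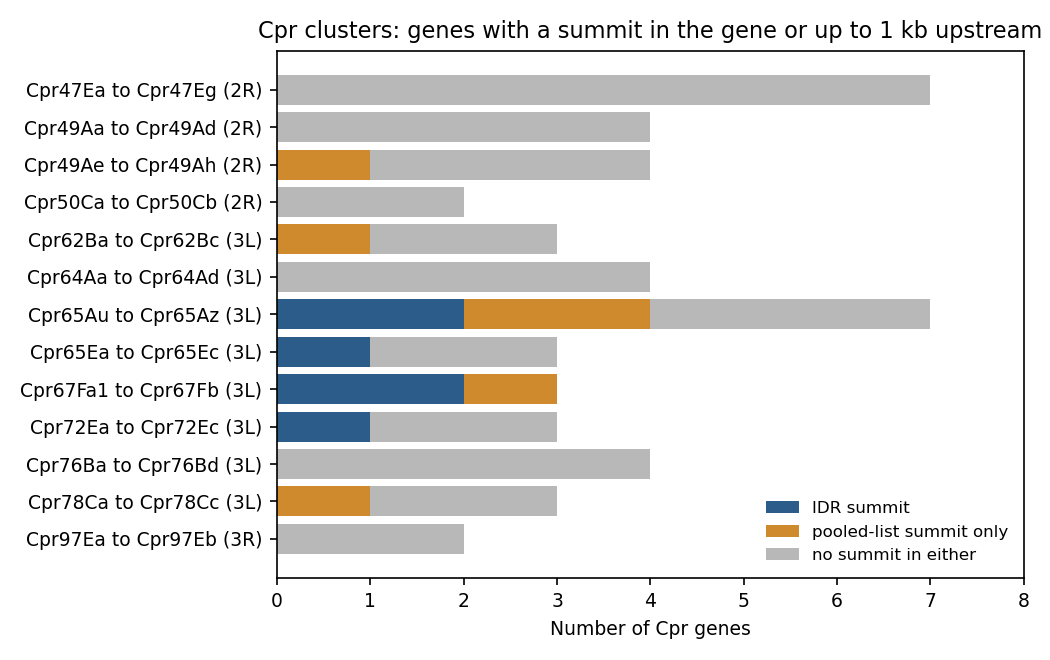
Number of Cpr genes in each of the 13 clusters, with the arm in brackets, by whether an IDR summit (blue), only a pooled-list summit (orange) or neither (grey) lay in the window of the gene. The 4 clusters with an IDR summit are on 3L, and the largest cluster on 2R, with 7 genes, had neither.

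Per length of sequence the clusters were not poor in IDR summits. Their spans add up to 202 kb and held 11 IDR summits, or 5.44 per 100 kb, against 4.24 per 100 kb over the 6 arms. The 5683 strongest regions of replicates 1, 2 and 3 gave 4.94, 4.45 and 3.46 per 100 kb, on both sides of the same 4.24. The pooled list of 30000 regions gave 16.3 per 100 kb in the spans against 22.4 over the arms. 3 of the 11 IDR summits lay in no window of a Cpr gene. The 11 were unevenly spread, with 4 in the span of Cpr65Au to Cpr65Az and 3 in that of Cpr65Ea to Cpr65Ec. Some of their regions overlap, as at Cpr65Az and Cpr67Fb, and each summit was counted singly in the spans and over the arms.

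By arm, the genes marked with the main window were all on 3L. Of its 35 Cpr genes 7 were marked against 4.57 expected from genes of like length on all arms, and 675 or 24.6% of the 2739 genes of this arm had an IDR summit. Of the 21 Cpr genes on 2R 0 were marked against 3.51 expected, also from genes of like length on all arms. Were the 21 independent, 0 marked would allow a share of up to 14.3%, but most lie in clusters, so this bound is too tight. Of all 2852 genes of that arm, whatever their length, 18.7% had an IDR summit, the lowest share of the arms. Arms 2L and 3R hold 5 Cpr genes each and X holds 4, with 0 marked and 0.506, 0.914 and 0.509 expected. Other rules did mark genes off 3L. With 2 kb upstream Cpr100A on 3R was marked. By nearest TSS, Cpr51A on 2R and Cpr92A and Cpr100A on 3R were marked. In the pooled list 4 of the 5 genes on 2L had a summit (Cpr23B, Cpr30B, Cpr31A and Cpr35B) against 1.34 expected, and 1 of the 21 genes on 2R had one (Cpr49Ae) against 7.41 expected. On 3L it was 13 against 10.6, on X 1 against 1.16 and on 3R 0 against 1.82. The summits at Cpr23B and Cpr30B also lay in the windows of CG3119 and CG17855.

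Distances to IDR summits had nearly the same median in the family and over all genes. The distance from a TSS of the gene to the nearest IDR summit had a median of 8916 bp over the 70 Cpr genes and 8958 bp over all genes. To the nearest summit of the pooled list it was 3650 bp against 2563 bp. The clustered genes had a median of 7927 bp to an IDR summit and the single genes 13992 bp. The nearest IDR summit was 76310 bp away at Cpr49Ah, the largest distance in the family, and 74901 bp away at the single gene Cpr92F.

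Other genes of the cuticle, except for the regulators, also had fewer IDR summits than genes of like length. Of 27 CPR-type genes with other symbols, among them the larval cuticle genes Lcp1 to Lcp4 and the Ccp84A group, 0 had an IDR summit against 2.51 expected from genes of like length. Of 25 Tweedle genes, another family of cuticular proteins, 0 had one against 2.98 expected. Of 7 tanning genes, such as ple and Ddc, which act in the synthesis of dopamine for hardening and pigment, 0 had one against 2.25 expected. Of 19 genes of chitin synthesis and matrix 3 had one against 6.63 expected. These were the chitinase gene Cht7 (signal 838.8, summit 224 bp upstream), mmy, which acts in the synthesis of the chitin precursor (314.7, 434 bp upstream), and exp (188.8). In the other lists the picture was less uniform. The pooled list of 30000 regions marked 14 of the 19 chitin genes against 11.1 expected and 4 of the 7 tanning genes against 3.79 expected, but 4 CPR-type genes with other symbols against 6.84 and 3 Tweedle genes against 7.06. Among the 5683 strongest regions of replicates 1, 2 and 3, summits marked 4, 4 and 6 chitin genes and 1, 0 and 1 tanning genes. They marked 1, 0 and 0 CPR-type genes with other symbols and 0 Tweedle genes in each replicate. Over all genes the shares in these replicate selections were 23.8%, 24.3% and 25.3%. Counts expected from genes of like length are not given for them, so they show neither a deficit nor an excess.

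Of 17 regulators of cuticle and moulting genes 12 had an IDR summit against 9.30 expected, with a median gene length of 33354 bp. The strongest were in the nuclear receptor genes Hr3 (signal 2473) and Hr4 (1470), in Eip75B, another nuclear receptor gene of the ecdysone response, 38 bp from its TSS (1270), and in the Ets factor gene Eip74EF (1000). The odorant and gustatory receptor genes, another large family of short genes, had an IDR summit in 2 of 119 against 18.4 expected, Or88a (668.2) and Gr64a (192.0). The Cpr share, 7 of 70, lay between the 1.68% of these receptor genes and the 22.3% of all genes. None of the differences between lists was tested.

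**Figure D5:**
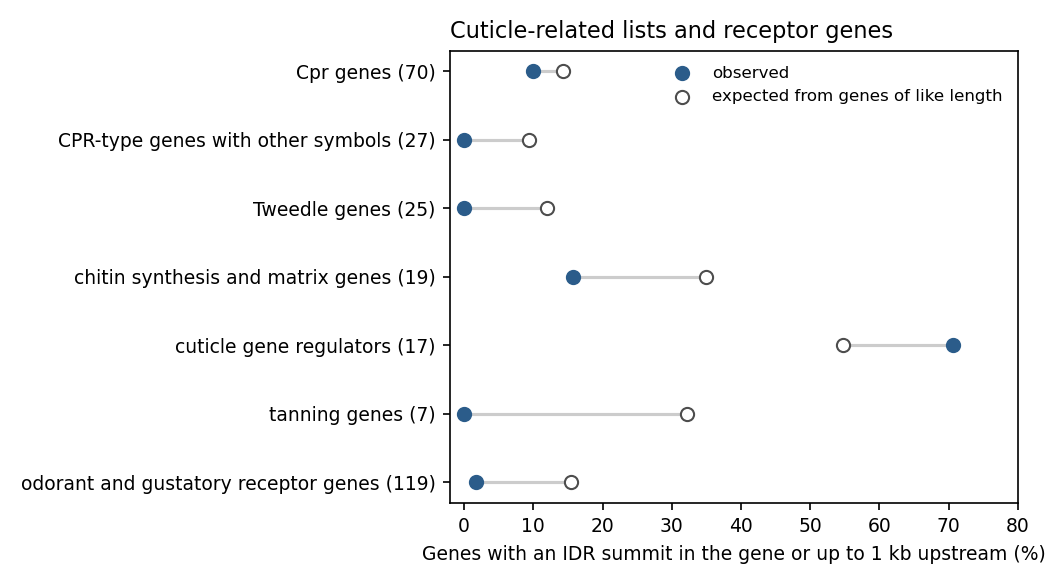
Share of genes whose window holds an IDR summit (filled) and the share expected from other genes of like length (open), for the Cpr genes and 6 comparison lists, with the number of genes in brackets. The Cpr genes stand at 7 of 70 against 14.3% expected, and of these lists only the regulators stand above their expected share.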

How the data were processed

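Binding was measured by chromatin immunoprecipitation and sequencing in 3 biological replicates of 1 group. The authors deposited narrowPeak lists on dm6, per the file descriptions: 30000 regions for each replicate and for the pool, holding peaks and background, and 5683 that passed their IDR threshold. Signal values and −log10 q-values were used as deposited, per the file descriptions. Both the signal's scale and the read depth are unknown, so regions were ranked by signal inside each list and not compared by signal between lists. The aligner, peak caller and IDR threshold were not given in the sources used here. For comparison with the IDR list, the 5683 strongest regions of each replicate were taken.

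A gene's window was its body plus 1 kb upstream on its strand. Expected counts sum, over Cpr genes, the share of other protein-coding genes in the same of 20 length classes whose window holds a summit. They involve no random draw and carry no p-value. No test was run: there is 1 group, and genes are not replicates, so SDs are over the 3 replicate lists. Replicate ranks are those of the strongest region overlapping by 1 bp or more. Functions were tested on simulated data. Members and lists were chosen with earlier results of these data known. The named-gene rule gave all genes with an IDR summit, every cluster of 3 or more, the 5 strongest pooled regions among genes without one, and up to 4 genes per comparison list. 1 list symbol, obst-C, matched no gene. Arm lengths of the RefSeq release 6 sequence hold every region and gene. Alternatives covered windows, clusters, matching and stricter lists. Python 3.11.15, NumPy 2.4.6, pandas 2.3.3 and matplotlib 3.10.9 were used.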

Additional observations from a re-analysis of the deposited data

How the results depend on the processing

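Of 55 recomputed values, 40 stayed within 1.5 times the reported count or within the replicate spread of the density, and 15 moved further. With the gene body alone, 1 Cpr gene (expected 3.66), 0 clustered genes and 1 distinct summit remained, since the other 9 summits are upstream, and the pooled list marked 7 genes against 10.1 expected. With the 2841 strongest IDR regions, 2 Cpr genes (expected 6.49) and 1 clustered gene were marked, by 2 distinct summits, and the cluster density was 1.98 per 100 kb. These drops follow in part from the shorter list. The arm density of 4.24 per 100 kb is for all 5683 regions, so it is no baseline for the 1.98. With summits given to the gene with the nearest TSS, 11 Cpr genes were marked against 10.6 expected, so the count was no longer below the expected one. Of the 11, 3 were single genes against 3.27 expected, and 6 were among the 7. With 2 kb upstream, 2 single genes were marked against 3.81 expected. Without length matching, 15.63 genes were expected, and with matching on length and distance to neighbours 8.53. The pooled list at a q-value under 0.05 marked 7 genes. Only 2 member summits lay among the 2841 strongest regions of all 3 replicates. Leaving out replicate 1, 2 or 3 left 4389, 4275 and 4395 regions, fewer than the 5683 of the IDR list. These shorter lists gave 5 to 6 Cpr genes against 8.19 to 8.47 expected, 4 to 5 clustered genes, 1 single gene in each case, and 7 distinct summits. The clustered count of 6, below 6.80 expected, stood above the expected one in 4 alternatives: 6 against 5.12 with 5 kb gaps, 6 against 5.36 in clusters of 3 or more, 7 against 6.43 within 1 kb of a TSS and 8 against 7.33 by nearest TSS. With 20 kb gaps it was 6 against 6.80. Read depth is unknown, so a gene without a region cannot be called unbound.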

Other observations

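Repeated sequence touched few of the Cpr genes. In 51 of the 70 windows no 31-base word occurred more than once on the 6 arms. 3 windows, those of Cpr65Ax2, Cpr65Ax1 and Cpr73D, had 10% or more of repeated words, with 59.9%, 51.5% and 46.4%. Leaving these 3 out, 6 of 67 Cpr genes had an IDR summit. Mean GC over the window was 42.9% for the 7 Cpr genes with an IDR summit and 44.9% for the 63 without. Whether either property is related to the counts was not tested.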
